A study of Mus musculus with 6 samples.

Results

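Collagen and laminin chain genes were followed in mouse cortex 24 h after traumatic brain injury (TBI). They were taken as the gene rows named Col or Lam with a chain number in mouse nomenclature, which gave 44 collagen and 11 laminin genes, 55 of 56826 gene rows. The mice were wild type and of the inbred strain C57BL/6, and formed 2 groups. The control group (3 libraries) is cortex of normal mice, for which the labels describe no sham operation. The TBI group (3 libraries) is cortex around the injury site, and the way the injury was made is not given in the sources used here. Nothing in the labels says whether each library came from 1 animal, so p-values measure only the spread between these libraries, which may be technical.

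Collagens are proteins whose chains wind in threes into a triple helix of repeated glycine triplets, and laminins are cross-shaped heterotrimers of an alpha, a beta and a gamma chain. In brain, type IV collagen and laminins form the sheets of the basement membrane around blood vessels and under the pial surface, laid down by endothelial cells, pericytes and astrocyte endfeet. Fibrillar collagens (types I, III, V) belong mainly to the meninges and the walls of larger vessels, and some less studied collagens are made by neurons.

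Levels are given as RPKM, the authors' read count scaled by row length and by library total, in the order of replicates 1 to 3 of each group. RPKM is per length and can therefore be compared between genes. A gene was called higher or lower where edgeR's quasi-likelihood test, fitted to the counts of all 42762 testable rows, gave an adjusted p under 0.05; ± after a fold change is its SE and after a mean its SD (n = 3 libraries per group). Counts summed over gene rows to between 67252519 and 83929814 per library, both extremes in control. Of the 55 genes, 18 have a span, introns included, that overlaps a row on the opposite strand. Reads in shared bases cannot be told apart because the strand setting of the counting is not given, and whether exons overlap was not examined. The highest such neighbour is a row of a cDNA clone overlapping the span of Col4a3, at a mean of 8.71 RPKM, against means of 0.268 and 0.136 RPKM for Col4a3 itself in control and TBI. Rows on the same strand also overlap members, among them 7 cDNA clone rows for Col23a1.

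In injured cortex 17 of the 55 genes were higher and 9 lower. All 55 passed the filter on low counts. Among all named gene rows tested, 15.4% were called higher and 10.7% lower, and among all rows, those named for FANTOM3 cDNA clones included, 9.12% and 8.36%. The median log2 fold change was 0.22 over the 55 genes against 0.02 over the 16941 named rows tested. In all 17 higher genes and in 8 of the 9 lower genes the libraries of the 2 groups did not overlap, the exception being Col1a1. Among named rows tested, 15.4% were called higher without overlap and 9.72% lower without overlap. Changes were of moderate size, with 6 genes at least 2-fold higher (7.12% of named rows tested) and 3 at least 2-fold lower (0.874%). Collagens had 14 higher and 6 lower of 44, and laminins 3 higher and 3 lower of 11. Beside these counts, and those of each class below, stand 15.4% higher and 10.7% lower among named rows tested. In bulk tissue fewer cells of a type and less RNA per cell cannot be told apart.

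**Figure D1:**
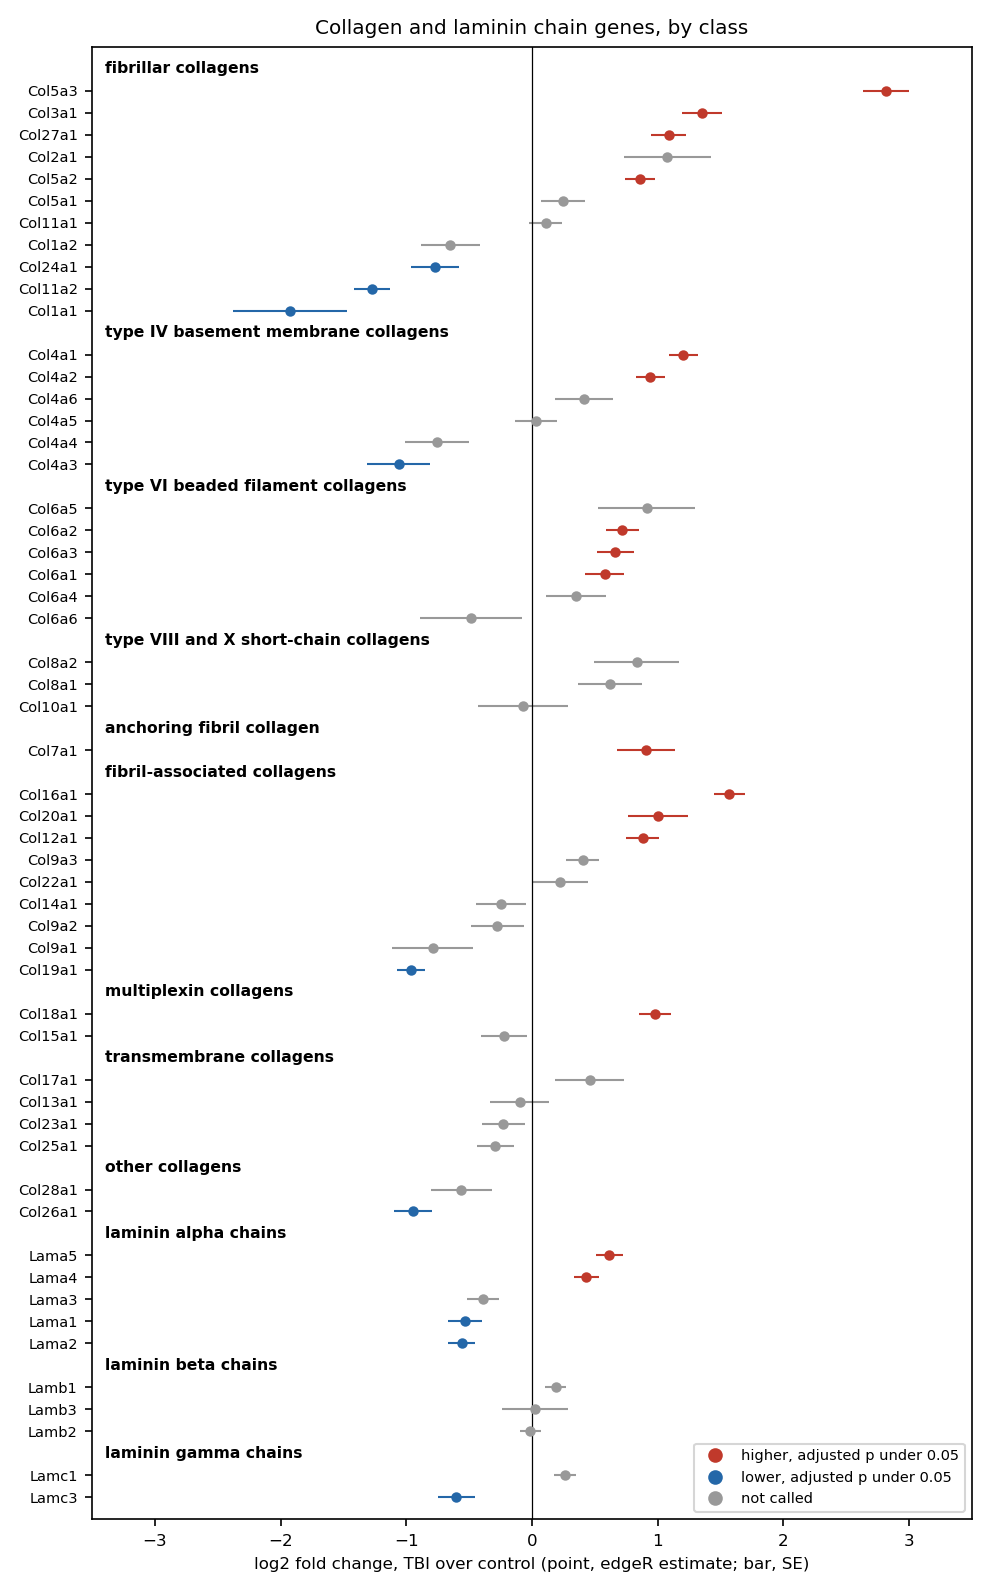
Log2 fold change of TBI over control for collagen and laminin genes, grouped by structural class, with the edgeR estimate as a point and its SE as a bar. Red marks genes called higher, blue genes called lower and grey genes not called; Col5a3 is farthest to the right at 2.82 and Col1a1 farthest to the left at -1.93.

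Type IV collagen of the common basement membrane rose. Col4a1 and Col4a2 encode the chains that assemble together in nearly all basement membranes, including those of brain vessels, and were the most abundant collagen genes of injured cortex. Col4a1 (chr8:11198423-11312826 in mm10, minus strand) was at 5.81, 5.29 and 5.49 RPKM in the control libraries and 13.2, 11.2 and 16.1 RPKM in the TBI libraries. Every TBI library was above every control library (log2 fold change 1.20 ± 0.12, edgeR adjusted p = 2.11e-05). Col4a2 (chr8:11312829-11449287, plus strand) was at 4.94, 4.38 and 4.18 RPKM in the control libraries and 8.95, 7.75 and 10.7 RPKM in the TBI libraries. Its groups were likewise apart (log2 fold change 0.94 ± 0.11, edgeR adjusted p = 1.26e-04), and in both genes TBI replicate 3 was the highest library and TBI replicate 2 the lowest TBI library. Of 12 endothelial markers 6 were higher, 5 not called and 1, Slco1a4, lower, and the list summed to 67.4 to 76.0 RPKM in control and 91.7 to 92.3 RPKM in TBI. The 10 pericyte markers summed to 55.1 to 61.1 RPKM in control and 50.9 to 55.1 RPKM in TBI, with 0 higher and 1 lower by edgeR (DESeq2 1 and 1, limma-voom 0 and 1, and 3 higher at an unadjusted edgeR p under 0.05). The largest part of each pericyte sum was 1 gene, Rgs5, the marker called lower. Its mean was 27.3 RPKM in control and 22.7 RPKM in TBI. Without Rgs5 the other 9 summed to 28.6 to 31.8 RPKM in control and 29.0 to 30.8 RPKM in TBI. These sums were added after the data were seen. The median of the pericyte list was 0.21 on the log2 scale. The part of both cell types in the type IV values was not tested.

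The 2 genes lie head to head, with 2 bases between the deposited rows, and the windows around their start sites are shown because the pair moved together. Each window runs from 250 bases before to 50 bases after the start site in RefSeq (GRCm38.p6), where the start sites are 21 bases apart and the windows share 78 bases. Capitals mark, on either strand, TATAAA as the TATA box, CCAAT as the CCAAT box, GGGCGG as the GC box and TGANTCA as the AP-1 site.
Col4a1 (chr8:11312777-11313076, minus strand): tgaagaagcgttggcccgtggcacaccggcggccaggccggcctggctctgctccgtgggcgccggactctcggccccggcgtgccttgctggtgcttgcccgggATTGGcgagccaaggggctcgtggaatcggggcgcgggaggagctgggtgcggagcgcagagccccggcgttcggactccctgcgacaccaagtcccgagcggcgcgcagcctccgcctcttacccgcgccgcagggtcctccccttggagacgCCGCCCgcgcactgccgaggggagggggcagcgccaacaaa
Col4a2 (chr8:11312555-11312854, plus strand): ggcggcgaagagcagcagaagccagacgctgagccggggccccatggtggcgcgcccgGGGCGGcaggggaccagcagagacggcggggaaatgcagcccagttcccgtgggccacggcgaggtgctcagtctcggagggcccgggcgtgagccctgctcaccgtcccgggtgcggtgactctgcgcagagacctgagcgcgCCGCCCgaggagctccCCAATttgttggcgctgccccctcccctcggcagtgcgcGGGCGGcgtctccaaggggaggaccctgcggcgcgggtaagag
Both windows hold CCAAT, at -145 on the opposite strand for Col4a1 and at -32 for Col4a2. Both hold GGGCGG, 1 match for Col4a1 and 3 for Col4a2, with no TATAAA and no TGANTCA. The Col4a1 match to GGGCGG, at 10 on the opposite strand, and the Col4a2 match at 8 are the same bases within the shared 78, counted for both genes. RefSeq windows were at hand for 40 of the 55 genes. GGGCGG was in 25 of these 40 (62.5%) against 35.7% of 32851 windows of all genes, CCAAT in 14 (35.0% against 37.4%), TATAAA in 5 (12.5% against 13.6%) and TGANTCA in 1 (2.50% against 7.81%). The share of the 40 counts genes with a match in any of their windows. The other share counts single windows, whether or not their genes were tested here. Of the 13 higher genes with a window, 9 held GGGCGG and 6 CCAAT. Of the 4 lower ones, 2 held GGGCGG and 0 CCAAT, and of the 23 not called, 14 held GGGCGG and 8 CCAAT. A match is a run of letters and not a shown binding site.

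None of the other 4 type IV chains was called higher by edgeR, DESeq2 or limma-voom, and 0 were higher at an unadjusted edgeR p under 0.05, while 2 were lower at that level. Col4a3 and Col4a4, which form with Col4a5 the basement membrane network of kidney glomerulus and lung, also lie head to head, with 71 bases between their rows. Col4a3 was at 0.245, 0.183 and 0.375 RPKM in the control libraries and 0.152, 0.135 and 0.121 RPKM in the TBI libraries. All 3 TBI libraries were below the controls (log2 fold change -1.06 ± 0.25, edgeR adjusted p = 0.0112), but control replicate 3 was the highest library, and without it the gene was not called (log2 fold change -0.73, edgeR adjusted p = 0.0600, range over the alternatives 6.64e-04 to 0.0600). Col4a4 was not called at 0.145, 0.133 and 0.238 RPKM in control and 0.120, 0.0923 and 0.112 RPKM in TBI (log2 fold change -0.76 ± 0.26, edgeR adjusted p = 0.0632), although its groups did not overlap either. It was called without control replicate 2 (log2 fold change -0.93, edgeR adjusted p = 0.0261, range over the alternatives 0.0261 to 0.309). Col4a4 was also called lower with no filter on low counts (edgeR adjusted p = 0.04845) and with a replicate block (edgeR adjusted p = 0.0426). The X-linked pair gave a log2 fold change of 0.03 for Col4a5 and 0.41 for Col4a6, with overlapping groups and edgeR adjusted p = 0.933 and 0.274. Col4a6 was called without control replicate 3 (log2 fold change 0.74, edgeR adjusted p = 0.0466, range over the alternatives 0.0466 to 0.539).

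**Figure D2:**
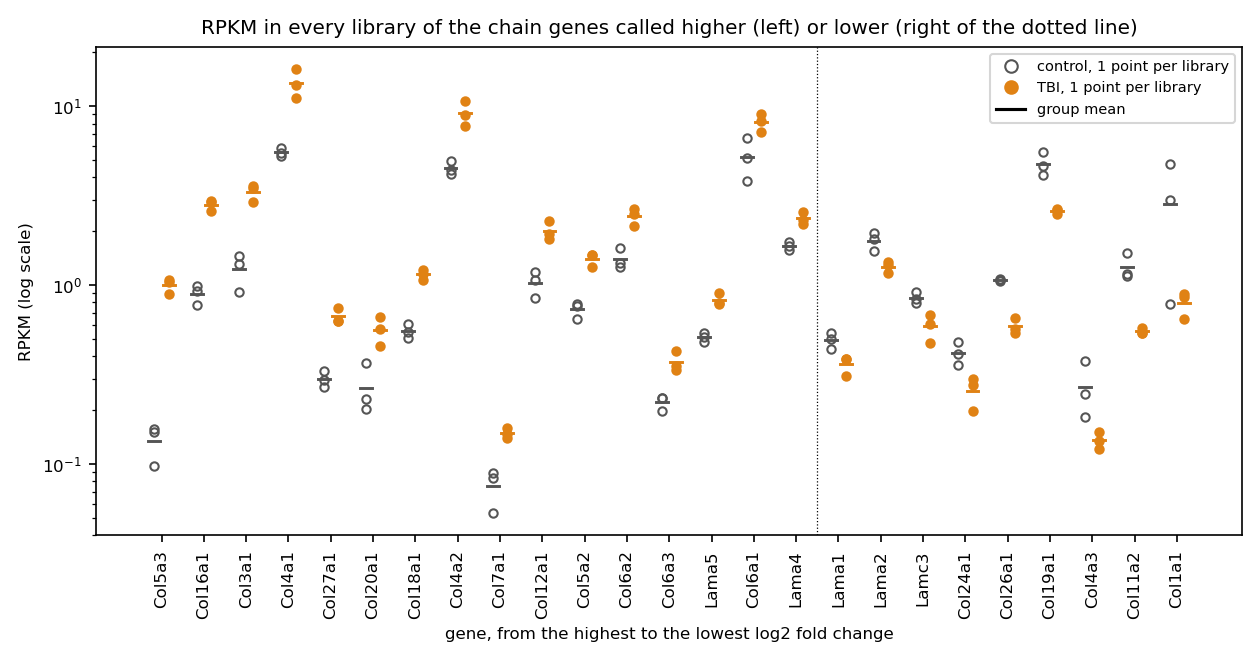
RPKM on a log scale in each of the 6 libraries (open circles, control; filled circles, TBI; short lines, group means) for called genes, ordered by log2 fold change. The groups are apart in every gene shown but Col1a1, where control replicate 2 lies among the TBI libraries at 0.784 RPKM.

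Other basement membrane collagens had 1 higher gene in each of 2 classes. Col18a1, whose product sits in vascular basement membranes and carries endostatin, an inhibitor of vessel growth, at its end, was at 0.544, 0.506 and 0.605 RPKM in the control libraries and 1.07, 1.16 and 1.22 RPKM in the TBI libraries. It was higher in every TBI library (log2 fold change 0.98 ± 0.13, edgeR adjusted p = 1.93e-04). Its relative Col15a1 was at 0.349, 0.315 and 0.298 RPKM in control and 0.238, 0.294 and 0.339 RPKM in TBI and was not called (log2 fold change -0.22 ± 0.19, edgeR adjusted p = 0.479). Col7a1, the anchoring fibril chain of skin, was at 0.0841, 0.0895 and 0.0531 RPKM in the control libraries and 0.159, 0.148 and 0.141 RPKM in the TBI libraries. The groups did not overlap at this low level of 41 to 104 counts (log2 fold change 0.91 ± 0.23, edgeR adjusted p = 0.0171). The call was lost without control replicate 3 (log2 fold change 0.70, edgeR adjusted p = 0.0699) and without TBI replicate 1 (log2 fold change 0.85, edgeR adjusted p = 0.0719, range over the alternatives 0.00969 to 0.0719).

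Type VI collagen, which forms beaded filaments between basement membranes and the matrix around them, rose in its 3 classical chains. Col6a1 was at 5.15, 6.60 and 3.79 RPKM in the control libraries and 8.26, 9.09 and 7.13 RPKM in the TBI libraries, with control replicate 2 the highest control and still below every TBI library (log2 fold change 0.58 ± 0.16, edgeR adjusted p = 0.0218). The Col6a1 call was lost when the cDNA clone rows were left out of the test (log2 fold change 0.56, edgeR adjusted p = 0.0529). It was also lost without control replicate 1 (log2 fold change 0.59, edgeR adjusted p = 0.0587), without control replicate 3 (log2 fold change 0.40, edgeR adjusted p = 0.0654), without TBI replicate 1 (log2 fold change 0.56, edgeR adjusted p = 0.0755) and without TBI replicate 2 (log2 fold change 0.49, edgeR adjusted p = 0.0867, range over the alternatives 1.21e-04 to 0.0867). Col6a2 was at 1.61, 1.32 and 1.26 RPKM in the control libraries and 2.51, 2.65 and 2.14 RPKM in the TBI libraries. Both Col6a2 and Col6a3 were apart between groups, with log2 fold change 0.72 ± 0.13, edgeR adjusted p = 0.00235 for Col6a2. Col6a3, the longest chain of the heterotrimer, was at 0.234, 0.234 and 0.197 RPKM in the control libraries and 0.351, 0.334 and 0.426 RPKM in the TBI libraries (log2 fold change 0.66 ± 0.15, edgeR adjusted p = 0.00854). The later-evolved chains Col6a4, Col6a5 and Col6a6 had mean levels of 0.0320 to 0.250 RPKM and overlapping groups, and edgeR called none of them (adjusted p of 0.374, 0.137 and 0.481; 0 of 3 by edgeR). Col6a4 was called without control replicate 3 (log2 fold change 0.71, edgeR adjusted p = 0.0424, range over the alternatives 0.0424 to 0.681) and Col6a5 without TBI replicate 3 (log2 fold change 1.21, edgeR adjusted p = 0.0408, range over the alternatives 0.0263 to 0.527).

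The short-chain collagens varied between libraries of the TBI group. Col8a1, whose chains form hexagonal lattices under endothelia, was at 1.11, 0.795 and 1.54 RPKM in the control libraries and 2.20, 2.23 and 1.18 RPKM in the TBI libraries. Col8a2 was at 0.694, 0.383 and 0.682 RPKM in the control libraries and 1.59, 1.22 and 0.510 RPKM in the TBI libraries. In both genes TBI replicates 1 and 2 were above all controls while TBI replicate 3 was among them, and neither was called (log2 fold change 0.62 ± 0.25, edgeR adjusted p = 0.125 for Col8a1). Without TBI replicate 3 both were called, Col8a1 (log2 fold change 0.86, edgeR adjusted p = 0.0215, range over the alternatives 0.0215 to 0.352) and Col8a2 (log2 fold change 1.17, edgeR adjusted p = 0.00698, range over the alternatives 0.00698 to 0.453), and Col8a1 also without control replicate 3 (log2 fold change 0.90, edgeR adjusted p = 0.0498). Col10a1, the hypertrophic cartilage collagen, ranged from 0.143 to 0.470 RPKM over both groups. Of these 3 genes edgeR, DESeq2 and limma-voom called 0, and 2 had an unadjusted edgeR p under 0.05. Markers of choroid plexus also varied between TBI libraries, but their sum in TBI replicate 3, the lowest of TBI, was above every control. The 8 choroid plexus markers summed to 169.7, 91.5 and 164 RPKM in control and 626, 442 and 254 RPKM in TBI, with 4 of 8 higher and none at 0 in any library. Most of each sum was 1 gene, Ttr, at 162.8, 85.1 and 156.5 RPKM in control and 606, 426.5 and 246.8 RPKM in TBI. Without Ttr the other 7 summed to 6.49 to 7.58 RPKM in control and 7.71 to 20.2 RPKM in TBI, values added after the data were seen. The part of these markers in the Col8a1 and Col8a2 values was not tested.

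Fibrillar collagens moved in both directions, with 4 higher and 3 lower of 11 (15.4% and 10.7% of named rows tested). The largest rise of all 55 genes was in Col5a3, a chain of type V collagen, which sits inside and on fibrils and limits their width. Col5a3 (chr9:20770050-20815122, minus strand) was at 0.156, 0.151 and 0.0979 RPKM in the control libraries and 1.04, 1.07 and 0.888 RPKM in the TBI libraries. All 3 TBI libraries were far above every control library, with a ratio of mean RPKM of 7.39 (log2 fold change 2.82 ± 0.18, edgeR adjusted p = 8.34e-07). The fibre-forming Col3a1 of vessel walls and loose connective tissue was at 1.30, 0.919 and 1.45 RPKM in the control libraries and 2.91, 3.47 and 3.57 RPKM in the TBI libraries. It rose without overlap (log2 fold change 1.35 ± 0.16, edgeR adjusted p = 8.86e-05), from 1.23 ± 0.276 RPKM in control to 3.32 ± 0.354 in TBI. Col5a2, the second chain of common type V collagen and the neighbour of Col3a1, was at 0.762, 0.649 and 0.782 RPKM in the control libraries and 1.47, 1.26 and 1.48 RPKM in the TBI libraries and rose without overlap (log2 fold change 0.86 ± 0.12, edgeR adjusted p = 4.24e-04). Col27a1, a minor fibrillar collagen of cartilage, was at 0.294, 0.331 and 0.270 RPKM in the control libraries and 0.627, 0.633 and 0.744 RPKM in the TBI libraries, again without overlap (log2 fold change 1.09 ± 0.14, edgeR adjusted p = 1.71e-04). Col5a1, which pairs with Col5a2, was at 1.38, 0.801 and 1.07 RPKM in control and 1.56, 1.30 and 1.24 RPKM in TBI. Its groups overlapped and it was not called (log2 fold change 0.25 ± 0.18, edgeR adjusted p = 0.395). The windows of the most changed of these genes whose libraries are apart in the 2 groups, with Col3a1, are shown with the same capitals.
Col5a3 (chr9:20815018-20815317, minus strand): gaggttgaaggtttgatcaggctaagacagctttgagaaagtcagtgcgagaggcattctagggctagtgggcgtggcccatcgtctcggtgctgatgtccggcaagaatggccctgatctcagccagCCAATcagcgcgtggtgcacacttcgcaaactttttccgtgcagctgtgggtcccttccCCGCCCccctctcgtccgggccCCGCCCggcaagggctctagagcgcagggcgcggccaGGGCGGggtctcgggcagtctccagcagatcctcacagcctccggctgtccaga
Col3a1 (chr1:45311288-45311587, plus strand): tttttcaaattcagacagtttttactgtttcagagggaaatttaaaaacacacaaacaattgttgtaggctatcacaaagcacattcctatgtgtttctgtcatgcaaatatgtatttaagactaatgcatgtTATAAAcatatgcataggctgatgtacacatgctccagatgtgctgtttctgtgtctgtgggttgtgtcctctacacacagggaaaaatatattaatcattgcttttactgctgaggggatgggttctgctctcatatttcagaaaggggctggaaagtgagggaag
Col11a2 (chr17:34038888-34039187, plus strand): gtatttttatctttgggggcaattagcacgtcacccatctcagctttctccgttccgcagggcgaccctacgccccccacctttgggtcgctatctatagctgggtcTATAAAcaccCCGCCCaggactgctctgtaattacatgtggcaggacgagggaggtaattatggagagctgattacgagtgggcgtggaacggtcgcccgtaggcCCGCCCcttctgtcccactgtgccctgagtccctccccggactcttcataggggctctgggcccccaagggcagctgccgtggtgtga
The Col5a3 window holds CCAAT at -122 and 3 matches to GGGCGG, that of Col3a1 TATAAA at -117, and that of Col11a2 TATAAA at -143 and 2 matches to GGGCGG.

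The type I chains, which together make the main collagen of dura, skin and bone, were not called higher. Col1a1 was at 2.997, 0.784 and 4.76 RPKM in the control libraries and 0.643, 0.858 and 0.891 RPKM in the TBI libraries. Control replicate 2 was in the range of the TBI libraries and control replicates 1 and 3 were well above it, so that the control SD was 1.99 RPKM around a mean of 2.85. edgeR called Col1a1 lower (log2 fold change -1.93 ± 0.45, edgeR adjusted p = 0.0109). The call was lost without control replicate 3 (log2 fold change -1.34, edgeR adjusted p = 0.0600) and without TBI replicate 1 (log2 fold change -1.80, edgeR adjusted p = 0.0547), and limma-voom did not make it (log2 fold change -1.59, limma-voom adjusted p = 0.0811, range over the alternatives 1.28e-05 to 0.0811). Col1a2 was at 3.04, 2.05 and 4.56 RPKM in the control libraries and 1.77, 2.25 and 2.52 RPKM in the TBI libraries. Its groups overlapped and it was not called (log2 fold change -0.65 ± 0.23, edgeR adjusted p = 0.0761), but it was without control replicate 2 (log2 fold change -0.90, edgeR adjusted p = 0.00354, range over the alternatives 0.00354 to 0.363). Col1a2 was also called lower with no filter on low counts (edgeR adjusted p = 0.0345) and with a replicate block (edgeR adjusted p = 0.00821). The 16 fibroblast and meningeal markers summed to 95.0, 107 and 121 RPKM in the control libraries, with control replicate 2 in the middle of the 3. The largest part of each sum was 1 gene, Nov, at 45.48 RPKM in control replicate 2. In that library Igfbp2 was at 15.89 RPKM and Pdgfra at 9.607 RPKM. Whether Nov, Igfbp2 and Pdgfra come from fibroblasts or meninges in this cortex was not tested. The sums are therefore no measure of either. The 16 markers summed to 136 to 169 RPKM in TBI but moved in both directions. Of the 16, 6 were higher and 2 lower, Ogn (log2 fold change -1.06) and Slc22a6 (-1.04). How much meninges each library held was not tested, nor was the part of these markers in the fibrillar collagen values.

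Col11a2 and Col24a1 were lower. Col11a2, known from cartilage, was at 1.51, 1.16 and 1.13 RPKM in the control libraries and 0.579, 0.539 and 0.542 RPKM in the TBI libraries. It fell without overlap to a level below 1 RPKM (log2 fold change -1.28 ± 0.14, edgeR adjusted p = 6.84e-05). Its partner Col11a1 was at 1.07, 1.41 and 0.930 RPKM in control and 1.28, 1.26 and 1.35 RPKM in TBI and was not called, with overlapping groups (log2 fold change 0.11 ± 0.13, edgeR adjusted p = 0.642). Col24a1 was at 0.481, 0.412 and 0.356 RPKM in the control libraries and 0.276, 0.299 and 0.198 RPKM in the TBI libraries. The groups were apart (log2 fold change -0.77 ± 0.19, edgeR adjusted p = 0.0141), and the call was lost without control replicate 1 (log2 fold change -0.64, edgeR adjusted p = 0.0636) and without TBI replicate 3 (log2 fold change -0.62, edgeR adjusted p = 0.0505, range over the alternatives 0.00210 to 0.0636). Col2a1, the cartilage fibril chain, was at 0.0492 ± 0.0108 and 0.109 ± 0.0308 RPKM and was not called (log2 fold change 1.08 ± 0.35, edgeR adjusted p = 0.0515). It was called without TBI replicate 1 (log2 fold change 1.29, edgeR adjusted p = 0.0405, range over the alternatives 0.0405 to 0.168).

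Fibril-associated collagens, which coat fibrils or link them to other matrix, had 3 higher and 1 lower of 9 (15.4% and 10.7% of named rows tested). Col16a1 was at 0.991, 0.777 and 0.922 RPKM in the control libraries and 2.59, 2.97 and 2.90 RPKM in the TBI libraries. Its groups were far apart, and its rise was second among the 55 only to that of Col5a3 (log2 fold change 1.57 ± 0.12, edgeR adjusted p = 3.08e-06). Col12a1, which binds type I fibrils in tissues under load and in wounds, was at 1.18, 0.846 and 1.07 RPKM in the control libraries and 1.82, 1.92 and 2.29 RPKM in the TBI libraries. All TBI libraries were higher (log2 fold change 0.88 ± 0.13, edgeR adjusted p = 6.42e-04). Col20a1 was at 0.366, 0.203 and 0.230 RPKM in the control libraries and 0.570, 0.457 and 0.663 RPKM in the TBI libraries, with groups apart (log2 fold change 1.0021 ± 0.24, edgeR adjusted p = 0.0121). That call was lost without control replicate 3 (log2 fold change 0.91, edgeR adjusted p = 0.0595) and without TBI replicate 3 (log2 fold change 0.86, edgeR adjusted p = 0.0567, range over the alternatives 0.00106 to 0.0595). The lower gene, Col19a1, is in mouse brain made by some neurons. It was at 5.55, 4.10 and 4.63 RPKM in the control libraries and 2.63, 2.65 and 2.48 RPKM in the TBI libraries. It was the fourth most abundant collagen gene of control cortex, and the TBI libraries lay close together below every control (log2 fold change -0.96 ± 0.11, edgeR adjusted p = 8.62e-05). The sum of the neuron markers was lower in the same libraries, at 1562 to 1699 RPKM in control and 1275 to 1410.0 RPKM in TBI. Of the 9 markers 4 were lower and 5, Gad1 and Gad2 among them, were not called, with none at 0. The part of these markers in the Col19a1 value was not tested.

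edgeR called no type IX chain and neither Col14a1 nor Col22a1, while DESeq2 called Col9a3 higher. Col9a3 was at 2.17, 1.77 and 1.86 RPKM in the control libraries and 3.03, 2.73 and 2.34 RPKM in the TBI libraries. The groups did not overlap (log2 fold change 0.40 ± 0.13, edgeR adjusted p = 0.0567; DESeq2 adjusted p = 0.0377), and edgeR called it without control replicate 1 (log2 fold change 0.50, edgeR adjusted p = 0.0403) and without TBI replicate 3 (log2 fold change 0.49, edgeR adjusted p = 0.0362, range over the alternatives 0.0248 to 0.222). Its partner chains gave fold changes the other way, with log2 values of -0.79 for Col9a1 and -0.28 for Col9a2, neither called (edgeR adjusted p = 0.119 and 0.430). Col14a1 and Col22a1 stayed between 0.147 and 0.257 RPKM in every library.

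Transmembrane collagens, which stand in the cell membrane and can be shed, had no called member. Col25a1, made by neurons and first found in amyloid plaques, was the most abundant collagen gene of control cortex at 7.23, 9.87 and 6.76 RPKM in the control libraries and 5.87, 8.44 and 6.21 RPKM in the TBI libraries. Replicate 2 was the highest library of each group and the groups overlapped (log2 fold change -0.29 ± 0.15, edgeR adjusted p = 0.210). Col23a1 was at 1.10, 1.43 and 1.41 RPKM in control and 0.945, 1.55 and 1.06 RPKM in TBI, again with replicate 2 highest in TBI and overlapping groups (log2 fold change -0.23 ± 0.17, edgeR adjusted p = 0.418). Without TBI replicate 2 both were called lower, Col25a1 (log2 fold change -0.48, edgeR adjusted p = 0.0345, range over the alternatives 0.0161 to 0.557) and Col23a1 (log2 fold change -0.48, edgeR adjusted p = 0.0425, range over the alternatives 0.0425 to 0.788). Col25a1 was also called lower with a replicate block on all 6 libraries (log2 fold change -0.30, edgeR adjusted p = 0.0161). Of the 4 genes edgeR, DESeq2 and limma-voom called 0, and 0 had an unadjusted edgeR p under 0.05. Outside these classes, Col26a1 was at 1.06, 1.07 and 1.08 RPKM in the control libraries and 0.571, 0.656 and 0.537 RPKM in the TBI libraries. Its controls differed by little and all TBI libraries were lower (log2 fold change -0.95 ± 0.15, edgeR adjusted p = 9.86e-04). Col28a1 gave a log2 fold change of -0.56 and was not called (edgeR adjusted p = 0.137).

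Among laminins the alpha chains, which set where a laminin is used and which receptor it binds, split by type. Lama4, the chain of endothelial basement membranes, was at 1.65, 1.58 and 1.74 RPKM in the control libraries and 2.19, 2.32 and 2.57 RPKM in the TBI libraries. All TBI libraries were higher (log2 fold change 0.43 ± 0.10, edgeR adjusted p = 0.00879). Lama5, found with Lama4 under mature endothelium, was at 0.516, 0.543 and 0.479 RPKM in the control libraries and 0.905, 0.781 and 0.799 RPKM in the TBI libraries, also without overlap (log2 fold change 0.61 ± 0.11, edgeR adjusted p = 0.00167). Lama1 and Lama2, the chains of the pial and astrocyte side of the basement membrane, were lower. Lama2 was at 1.80, 1.54 and 1.96 RPKM in the control libraries and 1.16, 1.34 and 1.30 RPKM in the TBI libraries, and all its TBI libraries were below the controls (log2 fold change -0.56 ± 0.11, edgeR adjusted p = 0.00364). Lama1 was at 0.442, 0.541 and 0.498 RPKM in the control libraries and 0.311, 0.384 and 0.385 RPKM in the TBI libraries, with the groups apart (log2 fold change -0.53 ± 0.13, edgeR adjusted p = 0.0161). The Lama1 call was lost without control replicate 3 (log2 fold change -0.52, edgeR adjusted p = 0.0590) and without TBI replicate 1 (log2 fold change -0.45, edgeR adjusted p = 0.0751, range over the alternatives 0.00519 to 0.0751). Lama3, an epithelial chain, was at 0.457, 0.527 and 0.417 RPKM in control and 0.360, 0.409 and 0.358 RPKM in TBI. Its groups were apart too, but edgeR did not call it (log2 fold change -0.39 ± 0.13, edgeR adjusted p = 0.0560), while DESeq2 did (adjusted p = 0.0492, range over the alternatives 0.0453 to 0.161).

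None of the beta chains, which many laminins share, was called. Lamb1 was at 2.95, 3.58 and 3.15 RPKM in the control libraries and 3.92, 3.84 and 3.89 RPKM in the TBI libraries. Lamb2 was at 3.61, 3.43 and 3.43 RPKM in the control libraries and 3.50, 3.79 and 3.68 RPKM in the TBI libraries. The Lamb1 groups just failed to overlap and the Lamb2 groups overlapped, and neither was called (log2 fold change 0.19 ± 0.08, edgeR adjusted p = 0.153 for Lamb1 and log2 fold change -0.01 ± 0.08, edgeR adjusted p = 0.943 for Lamb2). Lamb3, of epithelial laminin, stayed between 0.172 and 0.314 RPKM. Of the 3 beta chains edgeR, DESeq2 and limma-voom called 0, and 1 had an unadjusted edgeR p under 0.05.

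Among gamma chains, Lamc1, the gamma chain of most laminins and the most abundant laminin gene, was at 5.45, 5.20 and 5.15 RPKM in the control libraries and 6.71, 5.94 and 7.36 RPKM in the TBI libraries. The groups did not overlap, yet it was not called (log2 fold change 0.26 ± 0.09, edgeR adjusted p = 0.0597). It was called without TBI replicate 2 (log2 fold change 0.33, edgeR adjusted p = 0.0195, range over the alternatives 0.0195 to 0.238). Lamc3 was at 0.833, 0.917 and 0.792 RPKM in the control libraries and 0.474, 0.685 and 0.605 RPKM in the TBI libraries. All TBI libraries were lower (log2 fold change -0.60 ± 0.15, edgeR adjusted p = 0.0130), and the call was lost without TBI replicate 1 (log2 fold change -0.48, edgeR adjusted p = 0.0546, range over the alternatives 0.00200 to 0.0546).

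Ratios between chains that assemble together, or whose genes are neighbours, were compared per library as a description, with no test. The Col4a1 to Col4a2 ratio of RPKM was 1.18, 1.21 and 1.31 in control against 1.47, 1.44 and 1.50 in TBI. It was higher in every TBI library although both genes rose. The Col1a1 to Col1a2 ratio was 0.985, 0.383 and 1.04 in control against 0.364, 0.382 and 0.353 in TBI. Control replicate 2 had the ratio of the TBI libraries, and the 2 other controls were far above it. The Col3a1 to Col5a2 ratio, of convergent neighbours on chromosome 1, was 1.71, 1.42 and 1.86 in control against 1.98, 2.75 and 2.42 in TBI, again with groups apart. By contrast the Lamb1 to Lamb2 ratio overlapped, at 0.817, 1.05 and 0.919 in control against 1.12, 1.01 and 1.06 in TBI.

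**Figure D3:**
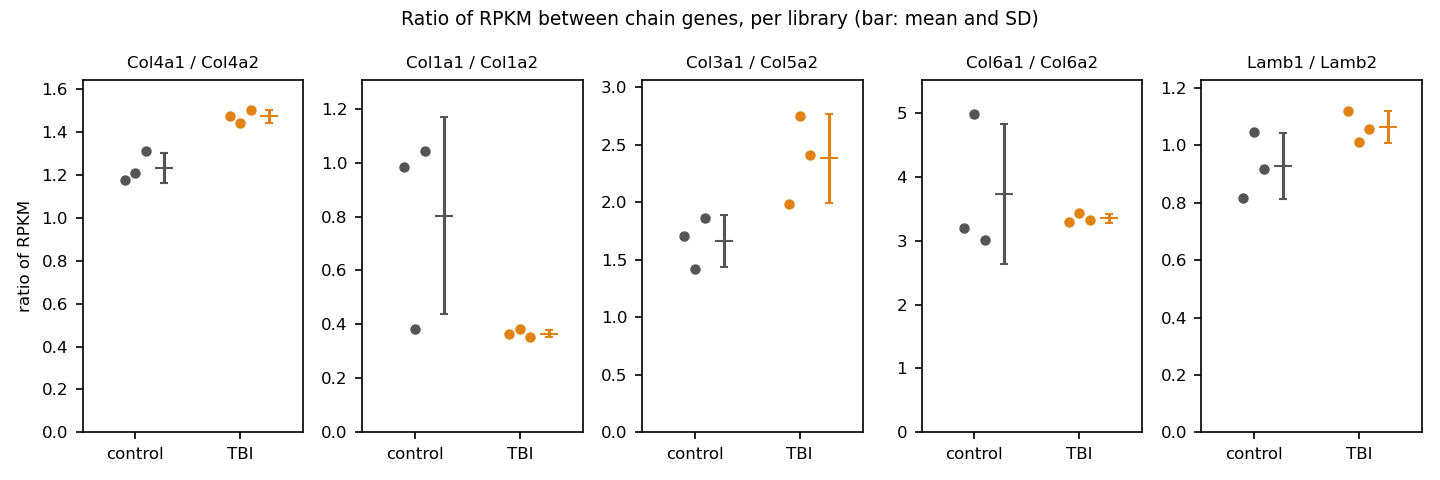
Ratio of RPKM between 5 pairs of chain genes in each library (points), with the group mean and SD beside them (bars); each panel has its own axis from 0. The Col4a1 to Col4a2 ratio is 1.18 to 1.31 in control and 1.44 to 1.50 in TBI, and the Col1a1 to Col1a2 ratio of control replicate 2, 0.383, lies close to the TBI values.

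Summed over genes, collagen RPKM was 56.9, 52.7 and 56.0 in control against 72.5, 74.5 and 75.8 in TBI. Laminin RPKM was 20.6, 20.9 and 20.5 in control against 24.6, 24.2 and 25.9 in TBI. Both sums were higher in every TBI library. Type IV chains went from 20.7% ± 0.281 to 32.2% ± 5.25 of the collagen sum, and were the largest class in each TBI library. Fibrillar chains went from 22.4% ± 5.54 to 17.4% ± 0.517, with a wide spread among controls (16.6% to 27.6%). Transmembrane chains went from 17.5% ± 4.04 to 11.3% ± 2.23. Within laminins, alpha chains went from 23.6% ± 1.11 to 20.9% ± 0.806 of the sum and beta chains from 33.6% ± 0.887 to 31.4% ± 1.42.

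**Figure D4:**
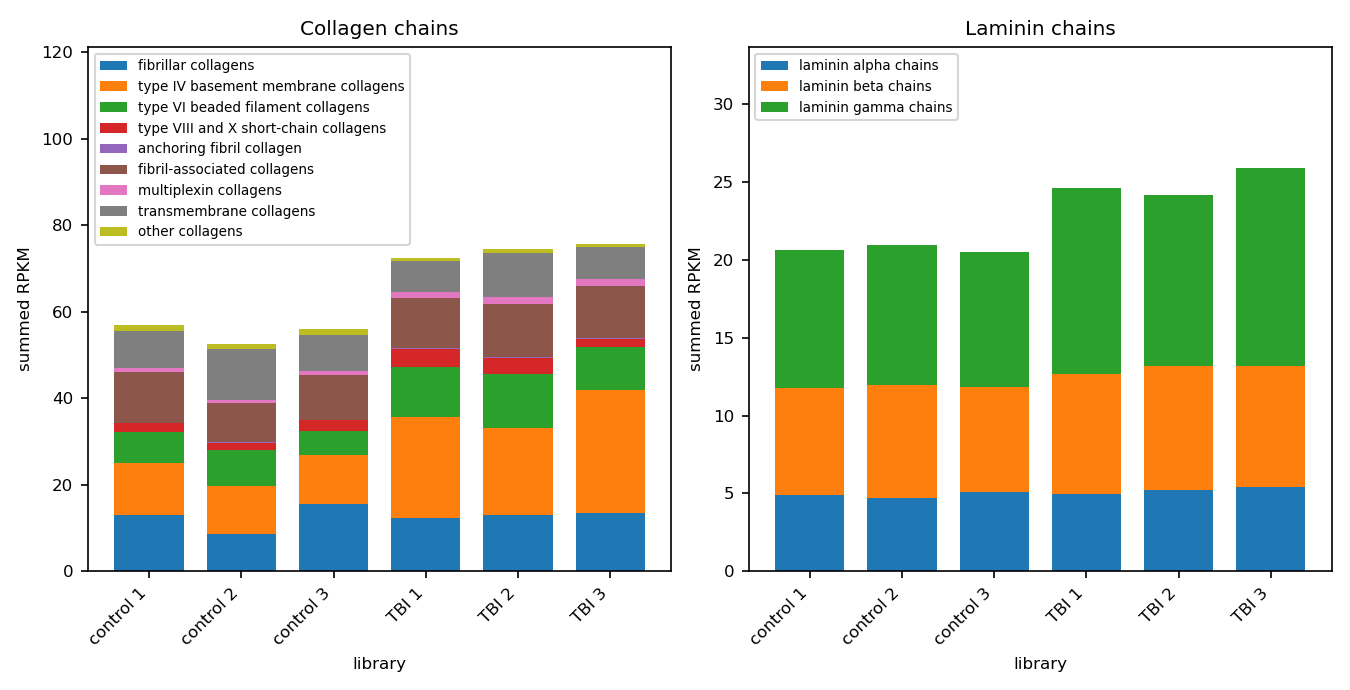
Summed RPKM of collagen chain genes (left) and laminin chain genes (right) in each library, stacked by class. The type IV band is 10.9 to 11.9 RPKM high in control and 20.04 to 28.3 in TBI, while the fibrillar band spans 8.72 to 15.5 in control and 12.2 to 13.5 in TBI.

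At the level of transcripts, 62 of 63 rows of these genes were testable, and 20 were higher and 9 lower (15.8% and 12.5% of named transcript rows tested were called higher and lower). Only 6 genes had more than 1 tested transcript, and their transcripts shared most of their reads. Both Col18a1 transcripts rose, with log2 fold changes of 0.97 ± 0.12 and 0.98 ± 0.12 (edgeR adjusted p = 0.000263 and 0.000253), and so did both of Col6a3 (0.66 ± 0.15 and 0.69 ± 0.16, edgeR adjusted p = 0.00998 and 0.00943). The 2 transcripts of Col2a1 fell on either side of the threshold (log2 fold change 1.15, edgeR adjusted p = 0.0455, and 1.07, adjusted p = 0.0513), though their counts differed by at most 2 in any library. None of the 7 tested transcripts of Col25a1, Col4a5 and Lamb3 was called by edgeR.

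Genes that process, secrete and crosslink collagen were mostly higher or not called. Of 32 tested, 17 were higher and 0 lower by edgeR, DESeq2 calling 18 and 0 and limma-voom 16 and 0, with 2 lower at an unadjusted edgeR p under 0.05. Without control replicate 2 edgeR called 2 lower, and without TBI replicate 1 it called 1. The list median was 0.49 on the log2 scale, against 0.02 over all named gene rows tested. Of those rows, 15.4% were called higher and 10.7% lower by edgeR. Lox, lysyl oxidase, which crosslinks collagen and elastin, rose from 0.219 ± 0.0693 RPKM in control to 1.84 ± 0.156 in TBI (log2 fold change 2.98 ± 0.20, edgeR adjusted p = 9.2e-07). Its relative Loxl1 rose from 0.289 ± 0.0654 RPKM in control to 1.48 ± 0.301 in TBI (log2 fold change 2.27 ± 0.20, edgeR adjusted p = 8.87e-06). P4ha3, a prolyl hydroxylase subunit that stabilises the triple helix, rose from 0.365 ± 0.0337 RPKM in control to 1.29 ± 0.0252 in TBI (log2 fold change 1.74 ± 0.16, edgeR adjusted p = 1.55e-05), while P4ha1 and P4ha2 were not called. Serpinh1, the collagen chaperone HSP47, was at 7.25, 5.92 and 7.93 RPKM in the control libraries and 16.9, 15.7 and 22.1 RPKM in the TBI libraries. Its groups were far apart (log2 fold change 1.29 ± 0.14, edgeR adjusted p = 4.91e-05).

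Partners of the basement membrane numbered 21 tested genes, of which 11 were higher and 4 lower (median 0.40). All named gene rows tested had 15.4% higher and 10.7% lower (median 0.02). Fn1, fibronectin, rose from 2.80 ± 0.277 RPKM in control to 6.01 ± 0.807 in TBI (log2 fold change 1.02 ± 0.11, edgeR adjusted p = 4.7e-05). Smoc2 rose from 2.51 ± 0.498 RPKM in control to 4.89 ± 0.274 in TBI (log2 fold change 0.88 ± 0.13, edgeR adjusted p = 6.48e-04) and Sparc, a collagen-binding glycoprotein, from 43.2 ± 6.60 RPKM in control to 83.1 ± 12.1 in TBI (log2 fold change 0.86 ± 0.12, edgeR adjusted p = 3.93e-04). Npnt, nephronectin, a ligand of an integrin, fell from 4.31 ± 0.978 RPKM in control to 2.22 ± 0.642 in TBI (log2 fold change -1.04 ± 0.21, edgeR adjusted p = 0.00388). Nidogens, which bridge laminin and type IV collagen, were both higher, Nid1 at a log2 fold change of 0.71 (edgeR adjusted p = 0.00158) and Nid2 at 0.58 (edgeR adjusted p = 0.00574). The nidogens, like P4ha1, P4ha2 and Dag1, were named for their role after their values were seen.

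Of 19 tested receptors for collagen or laminin, 8 were higher and 0 lower by edgeR (DESeq2 8 and 0, limma-voom 7 and 0, and 0 lower at an unadjusted edgeR p under 0.05; median 0.19). Without control replicate 3 the number higher was 5. All named gene rows tested had 15.4% higher and 10.7% lower by edgeR (median 0.02). The laminin-binding integrin chains Itga6 and Itga7 rose from 4.62 ± 0.170 RPKM in control to 8.97 ± 0.326 in TBI (log2 fold change 0.88 ± 0.07, edgeR adjusted p = 4.82e-06) and from 1.87 ± 0.422 RPKM in control to 3.63 ± 0.377 in TBI (log2 fold change 0.88 ± 0.16, edgeR adjusted p = 0.00214). Ddr1, a collagen receptor tyrosine kinase, rose from 4.71 ± 0.177 RPKM in control to 8.75 ± 1.29 in TBI (log2 fold change 0.81 ± 0.10, edgeR adjusted p = 1.72e-04). Itgb1, the beta chain shared by these integrins, rose from 19.0 ± 1.59 RPKM in control to 30.3 ± 2.25 in TBI (log2 fold change 0.59 ± 0.09, edgeR adjusted p = 6.64e-04). Dag1, dystroglycan, which holds astrocyte endfeet to laminin, was not called (log2 fold change -0.16 ± 0.07, edgeR adjusted p = 0.182).

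**Figure D5:**
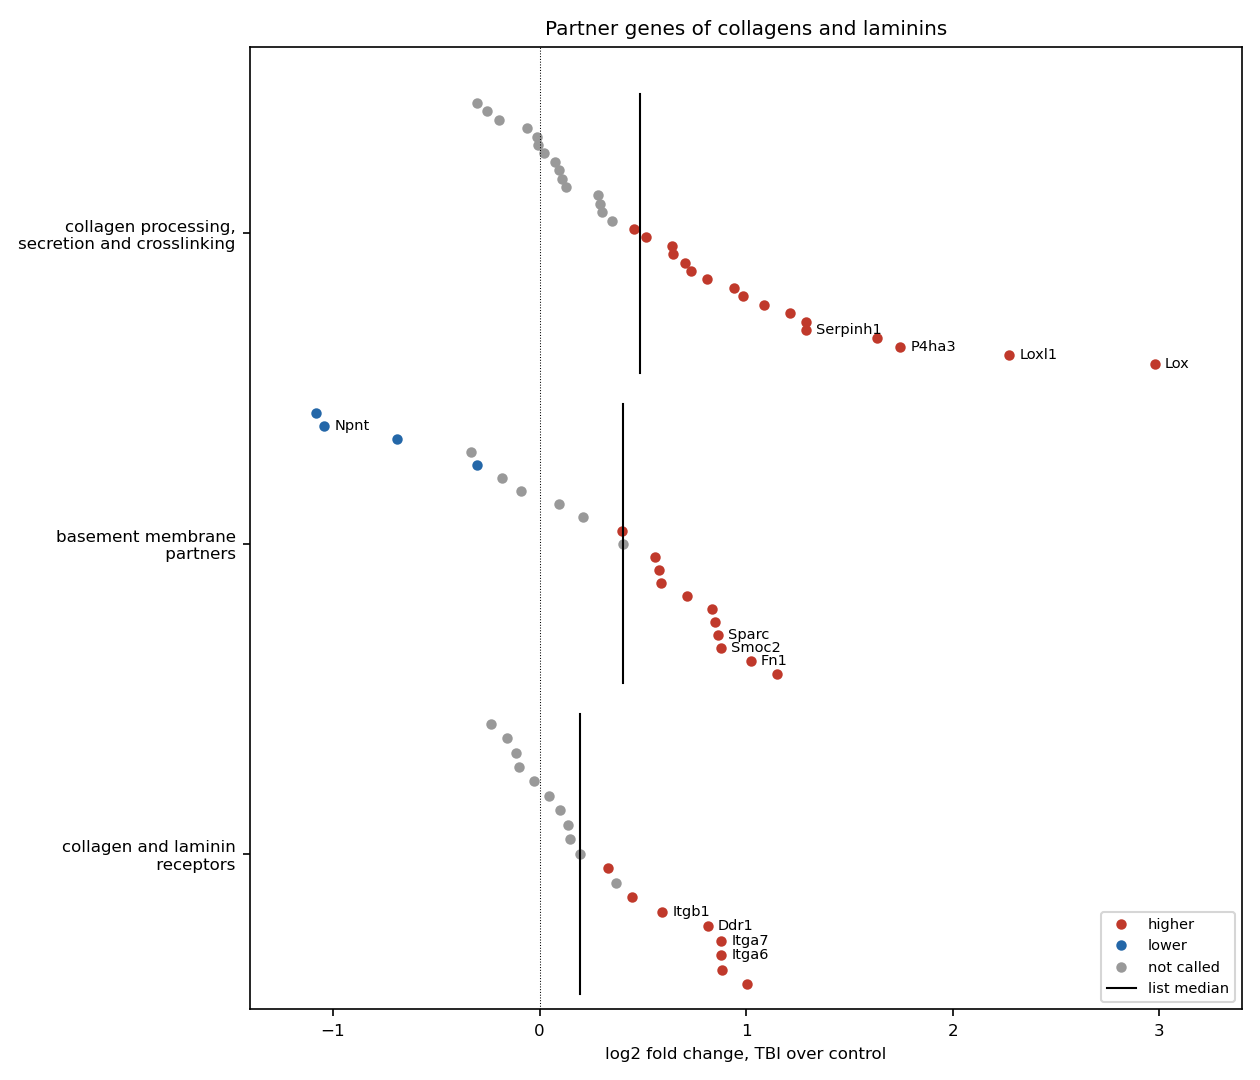
Log2 fold change of TBI over control for each tested gene of the 3 partner lists, 1 point per gene, ordered from low to high within a list, with the list median as a vertical line. Named points are the genes given in the text by the naming rule; Lox is farthest to the right at 2.98.

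Markers of the cell types listed here moved unequally. Beside the counts of every marker list, here and above, stand 15.4% higher and 10.7% lower among all named gene rows tested. Endothelial and pericyte markers are given with type IV collagen. Smooth muscle markers summed to 23.6 to 31.7 RPKM in control and 30.5 to 34.5 RPKM in TBI, with 2 higher and 1 lower of 7. Fibroblast and meningeal markers summed to 95.0 to 121 RPKM in control and 136 to 169 RPKM in TBI, with 6 higher and 2 lower of 16. Whether the genes of that list come only from these cells in cortex was not tested. Astrocyte markers summed to 670.4 to 733 RPKM in control and 779 to 833 RPKM in TBI (3 higher and 2 lower of 9, median -0.16). That order rested on Gfap, the intermediate filament gene of reactive astrocytes. Without it the other 8 summed to 653 to 712 RPKM in control and 599.8 to 643 RPKM in TBI, a value added after the data were seen. Macrophage and monocyte markers summed to 10.1 to 12.0 RPKM in control and 63.4 to 83.6 RPKM in TBI (8 higher of 9). Oligodendrocyte markers summed to 517 to 919 RPKM in control and 592 to 935 RPKM in TBI, and edgeR, DESeq2 and limma-voom called 0 of 6, with 1 at an unadjusted edgeR p under 0.05. No marker of these lists was at 0 in any library except Ly6c2, a monocyte gene. The part of these cell types in the collagen and laminin values was not tested.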

How the data were processed

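Total RNA was fragmented and copied into cDNA with 1 strand marked by deoxy-UTP, per the labels' protocols. Alignment tool TopHat2 and build mm10 are listed in the submitters' processing notes. How reads were counted, with which strand setting and annotation, is not given in the sources used here. The authors deposited, per the file headers, a raw count and an RPKM value per library for 56826 gene rows and 64529 transcript rows. Because rows overlap, 1 read may add to more than 1 row, and the totals are no exact depth. Counts were tested with edgeR 4.0.16 in R 4.3.3 (filterByExpr with minimum count 10 and minimum total 15, TMM, quasi-likelihood F test, no block, Benjamini-Hochberg adjustment over all rows tested), and the SE of a fold change is its size over the square root of F. DESeq2 1.42.0, limma-voom (limma 3.58.1), RLE scaling, no filter, clone rows left out, a replicate block and leaving out each library were alternatives. The fit was first tested on simulated counts. Members, gene lists, promoter motifs and chain pairs were chosen with earlier results of these data known. Values per library are given for called members whose groups are apart and for uncalled members with a mean of at least 1 RPKM, others added where a comparison needed them; from each partner list up to 4 called genes with the largest change and at least 1 RPKM in the higher group are named. 1 of the 55 genes enters the counts and sums and is not reported here on its own. Promoter windows come from RefSeq (GRCm38.p6). Precision is limited by 3 libraries per group.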

Additional observations from a re-analysis of the deposited data

How the results depend on the processing

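The numbers of collagen and laminin genes called stayed within 1.5 times of 17 higher and 9 lower in every alternative. Leaving out 1 library gave 16 to 20 higher and 6 to 11 lower, and the other settings 17 to 21 and 8 to 13. Of the 26 called genes, 18 (14 higher, 4 lower) kept call and direction in all 12 alternatives. For transcripts the number lower, 9, became 15 with a replicate block. Collagen processing genes called lower, 0, were 1 with clone rows left out and 0 to 2 when 1 library was left out; receptors called higher, 8, were 5 to 7 when 1 library was left out. Among uncalled genes, Col10a1 (log2 fold change -0.07) was 0.0581 with limma-voom, 0.0245 with a replicate block and between -0.366 and 0.509 when 1 library was left out. Leaving out 1 library also turned the direction of uncalled genes near 0, with ranges of -0.0137 to 0.269 for Col11a1, -0.227 to 0.00340 for Col13a1, -0.151 to 0.161 for Col4a5, -0.0464 to 0.0238 for Lamb2 and -0.181 to 0.258 for Lamb3. In all of these the cause was not tested. Same-numbered libraries correlated in their deviations from the group means at 0.0543, 0.0546 and 0.0487, under the limit of 0.1, so the numbers were not taken as pairs; each library correlated best with its own number. With the replicate block 21 collagen and laminin genes were higher and 13 lower. Those it added as higher were Col6a5, Col8a2, Col9a3 and Lamc1 (edgeR adjusted p = 0.0263, 0.0498, 0.0248 and 0.0439). Those it added as lower were Col1a2, Col4a4, Col25a1 and Lama3 (edgeR adjusted p = 0.00821, 0.0426, 0.0161 and 0.0453). Leaving out clone rows added Col2a1 as higher and Lama3 as lower (edgeR adjusted p = 0.0444 and 0.0466). The 3 libraries per group and low levels of many chains limit what can be called.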
